A study of Mus musculus with 9 samples.

Results

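The genes encoding WNT ligands were examined in mouse caudal epiblast-like cells (CEpiLCs), which are derived in vitro from embryonic stem (ES) cells and resemble the posterior epiblast that supplies the trunk. The members were 10 genes taken by symbol from the 24736 genes of the deposited table: Wnt3, Wnt3a, Wnt4, Wnt5a, Wnt5b, Wnt6, Wnt7b, Wnt8a, Wnt10a and Wnt11. The other 9 Wnt genes of the mouse served as a comparison list. Poly(A) RNA was sequenced from 9 cultures, 3 biological replicates each of wild-type cells (WT), cells lacking Cdx1, Cdx2 and Cdx4 (CdxKO) and cells lacking T, also called Brachyury or Bra (T/BraKO). All 3 groups received basic FGF at 10 ng/ml and the Porcupine inhibitor LGK974 at 5 uM throughout, and the GSK3 inhibitor CHIR99021 was added for the last day before collection at 72 h, on day 3. Per the study's methods every ES line came from the male HM1 TetON line, which was itself the WT control, and ES cells were grown on fibroblast feeders. As only 1 line per genotype is named, a difference between lines and the effect of a mutation cannot be told apart.

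WNT proteins are secreted signals that bind Frizzled receptors on neighbouring cells. With the co-receptors Lrp5 and Lrp6, ligands such as Wnt3, Wnt3a and Wnt8a stabilise β-catenin, which acts with TCF/LEF factors at target genes, whereas Wnt5a, Wnt5b and Wnt11 are best known for signalling through Ror and Ryk receptors that guides cell polarity and movement. In the mouse embryo Wnt3 is needed to form the primitive streak, and Wnt3a is needed in the streak and tailbud for the body axis to elongate. Each ligand needs a lipid on one serine, attached by Porcupine, before the carrier Wls can take it to the cell surface. LGK974 is used to block that step and CHIR99021 to activate the pathway inside the cell, and every group received both.

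The stretch that encodes the lipid-carrying serine is shown because it is the site of the step that LGK974 inhibits in every culture. A search of the longest coding sequence of each member found the residues CHG, any residue, then SGSC at 1 place in all 10 proteins. The 24 bases are given 5′ to 3′ on the coding strand for 9 of the members, with the codon of the serine in capitals.
Wnt3 (chr11:103812314-103812337): tgccacgggttgTCCggcagctgc
Wnt3a (chr11:59250053-59250076): tgccacgggctaTCTggcagctgt
Wnt4 (chr4:137296345-137296368): tgtcacggggtgTCGggctcctgc
Wnt5a (chr14:28522515-28522538): tgtcatggagtgTCTggctcctgt
Wnt5b (chr6:119433800-119433823): tgtcacggagtcTCCgggtcctgc
Wnt6 (chr1:74784172-74784195): tgccatgggcttTCGggttcctgc
Wnt7b (chr15:85537812-85537835): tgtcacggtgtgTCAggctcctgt
Wnt10a (chr1:74803156-74803179): tgccacggcaccTCAggcagctgc
Wnt11 (chr7:98850260-98850283): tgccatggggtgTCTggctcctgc
Every stretch lies within 1 coding exon. The bases were identical in all 9 genes at 13 of the 24 positions, and 4 different serine codons were used, TCT in 3 genes and TCA, TCC and TCG in 2 each. The serine is residue 209 of 352 in the Wnt3a protein and residue 186 of 354 in the Wnt8a protein, counted from the first methionine.

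The members lie on 8 chromosomes, and some have a second Wnt gene next to them (GENCODE M21, GRCm38, the assembly also called mm10). Wnt8a is on chromosome 18 (34542313 to 34548273), Wnt5a on chromosome 14 (28504750 to 28527448) and Wnt7b on chromosome 15 (85535437 to 85582473). Wnt6 (chromosome 1, 74771892 to 74785322) and Wnt10a (74791516 to 74804179) run in the same direction with 6.2 kb between them. On chromosome 11 Wnt3a (59248033 to 59290752) is 16.2 kb from Wnt9a, and Wnt3 (103774150 to 103817957) is 24.3 kb from Wnt9b. No protein-coding gene lies between the members of any of these pairs. Wnt5a, Wnt5b, Wnt6, Wnt7b and Wnt11 overlap a gene on the opposite strand, and reads were counted by strand.

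Libraries held between 25124344 and 34705361 expected counts. T fell from 10900 to 14760 normalised counts in WT to between 1777 and 2894 in T/BraKO (DESeq2 log2 fold change -2.42, adjusted p 7.83e-10). Cdx2 fell from 2699 to 6106 in WT to between 706.3 and 1625 in CdxKO (-2.03, adjusted p 0.0147), Cdx1 fell by 0.98 on the log2 scale (adjusted p 0.00373), and Cdx4 was at or under 3 counts in all 3 CdxKO libraries. The sources used here do not say which bases were deleted, so transcript that persists does not show a functional gene. Over 4 Y-linked genes the CdxKO libraries held at most 5 counts each, where the other libraries held 4324 to 6570. The methods give a male origin for every line, and the reason for this difference was not tested. Libraries of the same replicate number deviated from their group means together, and each comparison is therefore given from a fit to genotype alone and from a fit that also holds the replicate number, called the blocked fit. Summed TPM (a level scaled for transcript length and library size) of 9 caudal epiblast markers was 1373 to 2218 in every library. Pou5f1 was its largest part (group means 879.8 to 1241), and the sum hides changes of single genes. On genotype alone 3 of the 9 were lower in CdxKO than in WT, against 0.358% of all genes. These 3 were the targeted genes Cdx1, Cdx2 and Cdx4 themselves. In T/BraKO 1 was higher and 2 were lower than in WT, against 0.148% and 0.937%, and T itself was 1 of the 2. Between the mutants 2 were higher in CdxKO and 5 lower, against 2.52% and 0.962%. T was among the 2, and Cdx1, Cdx2 and Cdx4 were among the 5. The targeted genes in these counts follow from the genotypes and do not show a wider change of the list. The 7 trophoblast genes summed to 8.88 to 9.16 TPM in WT, 5.9 to 8.57 in CdxKO and 9.44 to 12.74 in T/BraKO. Of these, Tpbpa and Prl3d1 were at 0 in all groups. The lateral mesoderm list summed to 8.15 to 12.26 TPM in WT, 16.88 to 22 in CdxKO and 6.68 to 10.2 in T/BraKO, and the paraxial mesoderm list to 81.17 to 145.1, 53.04 to 164.1 and 35.81 to 61.18. Of the 8 paraxial genes 3 were lower in T/BraKO than in WT on genotype alone and 5 with the block, against 0.937% and 4.85% of all genes. In both fits 0 were higher. Mean normalised counts in WT and T/BraKO were 153.6 and 3.209 for Msgn1, 181.9 and 17.09 for Tbx6, and 330.7 and 377.1 for Lfng. The 8 fibroblast markers, which feeder cells would carry, summed to 34.09 to 59.5 TPM in WT, 42.08 to 78.01 in CdxKO and 33.34 to 54.78 in T/BraKO. Against WT on genotype alone, 0 of the 8 were called in CdxKO, against 0.335% of all genes higher and 0.358% lower. In T/BraKO 1 was lower (Postn), against 0.937% of all genes. With the block 2 were higher and 1 lower in CdxKO (Col1a1, Col1a2 and Thy1), against 3.4% and 1.91%. In T/BraKO 3 were lower with the block (Col1a1, Col1a2 and Postn), against 4.85%. Between the mutants 3 were higher in CdxKO (Col1a1, Col1a2 and Postn) and 1 lower (Thy1) in both fits. The shares of all genes there were 2.52% and 0.962% on genotype alone and 7.75% and 6.9% with the block. Col1a1, a collagen gene, had 1202, 1532 and 626.5 normalised counts in WT, 2010, 2952 and 1377 in CdxKO and 729.2, 604.5 and 353.4 in T/BraKO. In bulk samples fewer cells of a type and less RNA per cell cannot be told apart, and the part of these cell types in the differences below was not tested.

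Wnt8a was by far the most abundant ligand transcript in WT CEpiLCs. Its level was 224.5 ± 17.5 TPM (mean ± SD, n = 3), 7.35 times that of the next gene. Wnt6 (30.55 ± 17.9 TPM), Wnt5b (26.45 ± 2.43), Wnt3 (21.76 ± 5.63), Wnt3a (18.6 ± 3.70) and Wnt5a (17.5 ± 8.79) formed a middle tier in which each gene overlapped its neighbour in the order. A gap of 10.0 times separated Wnt5a from Wnt10a (1.74 ± 0.37 TPM), Wnt7b (1.5 ± 0.924), Wnt4 (1.28 ± 0.0513) and Wnt11 (0.80 ± 0.16). In this low tier, too, the libraries of neighbouring genes overlapped, except that Wnt11 lay below Wnt4 in every WT library. The same 6 genes held the upper places in T/BraKO and CdxKO, with Wnt8a first in both. Every member had more than 3 counts in all 9 libraries. Of the other 9 Wnt genes, Wnt9a had the highest level, 2.36 to 12.11 TPM over the 9 libraries, and Wnt10b ranged from 0.11 to 3.97 TPM. Wnt1 was at 0 in all WT and T/BraKO libraries.

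**Figure D1:**
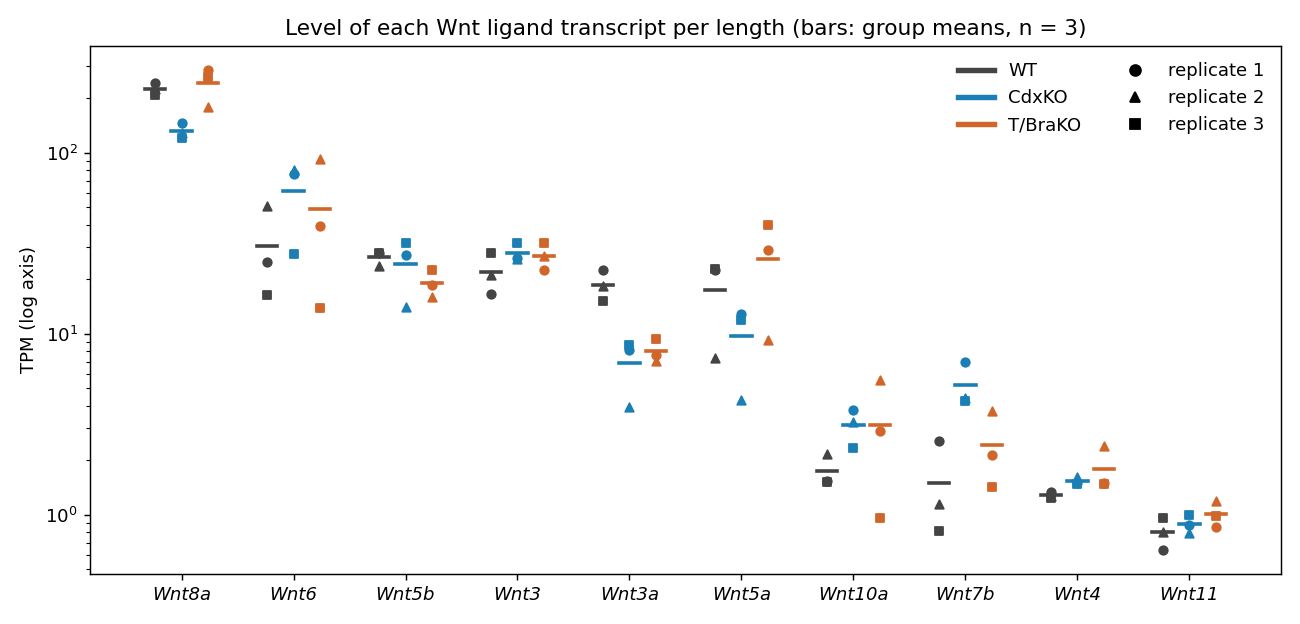
Level of each of the 10 Wnt ligand transcripts in TPM on a log axis, ordered by the WT mean, with 1 point per library (the shape gives the replicate number), colours for the 3 genotypes and bars for group means (n = 3). Wnt8a sits above all others in every genotype, at 224.5 TPM on average in WT, and Wnt10a, Wnt7b, Wnt4 and Wnt11 lie between 0.64 and 2.55 TPM in the WT libraries.

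Calls among the members were few in the fit to genotype alone, and Wnt3a was called in both mutants against WT. At an adjusted p of at most 0.05 by DESeq2, 1 of 10 members was higher (Wnt7b) and 2 lower (Wnt3a, Wnt8a) in CdxKO than in WT, where 0.335% of the 16737 genes tested were called higher and 0.358% lower. In T/BraKO against WT 1 member was lower (Wnt3a), against 0.937% of 18900 genes. No member was higher in T/BraKO by DESeq2, against 0.148% of genes, with 1 (Wnt4) at an unadjusted p under 0.05 and 0 by edgeR. Between the mutants 1 member was lower in CdxKO (Wnt8a), against 0.962% of 16016 genes. In the other direction DESeq2 called 0, against 2.52% of genes, with 1 (Wnt7b) at an unadjusted p under 0.05 and 0 by edgeR. The edgeR quasi-likelihood test on genotype alone called none of the members against WT, where it called 5 genes higher and 11 lower in CdxKO and 7 higher and 49 lower in T/BraKO in all. It called Wnt8a between the mutants.

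The blocked fit called more members. In CdxKO against WT it called 2 higher (Wnt3, Wnt7b) and 3 lower (Wnt3a, Wnt5a, Wnt8a), against 3.4% and 1.91% of 13855 genes. In T/BraKO against WT it called 2 higher (Wnt3, Wnt5a) and 2 lower (Wnt3a, Wnt5b), against 4.83% and 4.85% of 12773 genes. Between the mutants 1 member was higher in CdxKO (Wnt7b) and 2 lower (Wnt5a, Wnt8a), against 7.75% and 6.9% of 14936 genes. The median log2 fold change of the 10 members in this fit was 0.21 in CdxKO and 0.43 in T/BraKO against WT, beside -0.0019 and 0.02 over all genes tested. Both comparisons with WT use the same WT libraries.

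**Figure D2:**
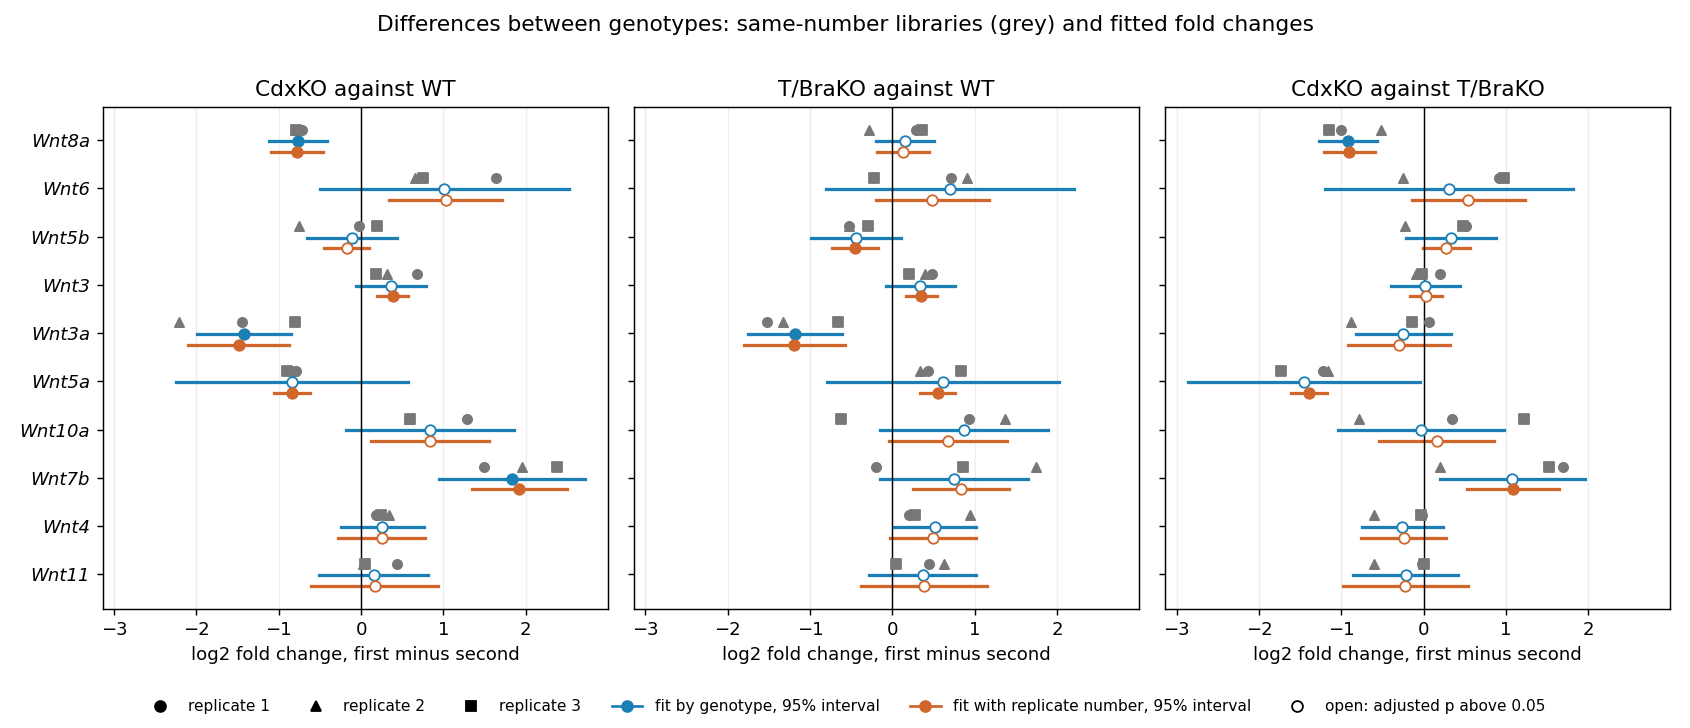
Log2 fold changes of the 10 members in the 3 comparisons, as differences between libraries of the same number (grey shapes) and as fitted values with 95% intervals from the fit to genotype alone (blue) and the blocked fit (orange), filled where the adjusted p was at most 0.05. The Wnt5a intervals narrow most with the block, from -2.25 to 0.57 to between -1.06 and -0.62 in CdxKO against WT.

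Wnt3a, the ligand of the primitive streak and tailbud, was lower in both mutants. Its normalised counts were 859.6, 694.5 and 591.1 in WT, 313.5, 149.1 and 338.6 in CdxKO and 300.1, 274.8 and 373.1 in T/BraKO, for replicates 1, 2 and 3. Every mutant library lay below every WT library, and the mutants overlapped each other. In CdxKO it fell 2.68-fold by DESeq2 (-1.42 on the log2 scale, SE 0.29, adjusted p 4.6e-04; blocked -1.49, adjusted p 1.54e-04). In T/BraKO it fell 2.26-fold (log2 -1.18, SE 0.29, adjusted p 0.00726; blocked -1.19, adjusted p 0.00339). The T/BraKO call rested on single libraries: the adjusted p was 0.183 without WT replicate 1, 0.0797 without T/BraKO replicate 1 and 0.068 without T/BraKO replicate 2. In the blocked fit it was 0.117 without WT replicate 1 and 0.0903 without T/BraKO replicate 1. The CdxKO call passed with each library left out in turn, with and without the block. Between the mutants the log2 difference was -0.25 with a 95% interval from -0.82 to 0.33 (adjusted p 0.906), which does not show that the levels were equal. Its neighbour Wnt9a, 16.2 kb away on the other strand, differed from WT by 0.48 in CdxKO and -0.12 in T/BraKO on the log2 scale (adjusted p 1 for both; blocked 0.133 and 0.436).

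Wnt8a, the dominant transcript and a ligand of the early streak, was lower in CdxKO than in both other groups. The counts were 5015, 4566 and 4401 in WT, 3046, 2615 and 2541 in CdxKO and 6098, 3757 and 5651 in T/BraKO. All CdxKO libraries lay below all others, whereas T/BraKO spanned the WT range, with replicate 2 below it. Against WT, Wnt8a fell 1.71-fold in CdxKO (-0.77 on the log2 scale, SE 0.18, adjusted p 0.00511; blocked adjusted p 9.38e-05), and the 3 same-number differences were close, at -0.72, -0.80 and -0.79. Without WT replicate 1 the adjusted p was 0.155 and without CdxKO replicate 3 it was 0.081, whereas the blocked call passed with any library left out. In T/BraKO the log2 difference from WT was 0.15 (95% interval -0.20 to 0.50, adjusted p 1). In the blocked fit without T/BraKO replicate 2 it was 0.31 with an adjusted p of 9.68e-05, so that 1 library decides whether Wnt8a is called higher in T/BraKO. Between the mutants Wnt8a was 1.89-fold lower in CdxKO (-0.92, SE 0.18, adjusted p 3.18e-05; blocked -0.90, adjusted p 6.11e-07), and this call passed with every library left out.

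**Figure D3:**
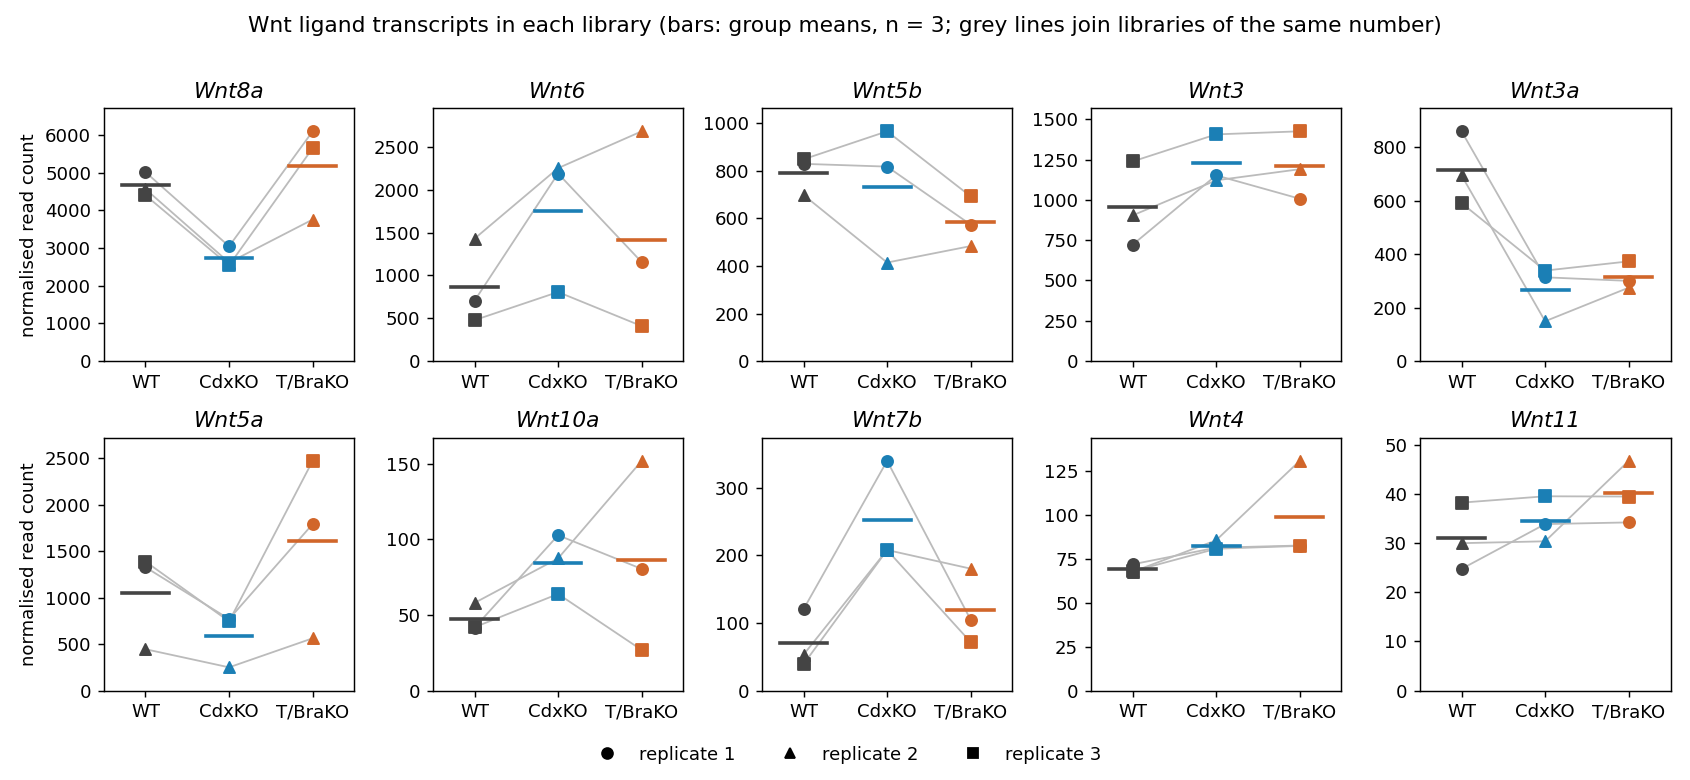
Normalised read counts of the 10 members in each library, with shapes for the replicate number, bars for group means (n = 3) and grey lines joining libraries of the same number across genotypes. Wnt3a and Wnt8a drop in all CdxKO libraries, and in Wnt5a the replicate 2 libraries sit at 250.9 to 563.3, below all others, with the same order of genotypes.

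The summed level of the members was lowest in CdxKO, where Wnt8a took the smallest share. The summed TPM of the 10 members was 322.0 to 362.6 in WT, 240.7 to 309.4 in CdxKO and 343.0 to 410.1 in T/BraKO, so that CdxKO lay below both other groups without overlap. Wnt8a was 63.9 to 66.9% of the sum in WT, 47.2 to 49.9% in CdxKO and 52.1 to 69.7% in T/BraKO. Without Wnt8a the remaining 9 members summed to 114.3 to 126.2 TPM in WT, 120.5 to 163.5 in CdxKO and 121.5 to 164.4 in T/BraKO, and all 3 groups overlapped. The lowest Wnt8a share among the T/BraKO libraries, 52.1%, was in replicate 2, where Wnt6 was highest. These sums were not tested.

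**Figure D4:**
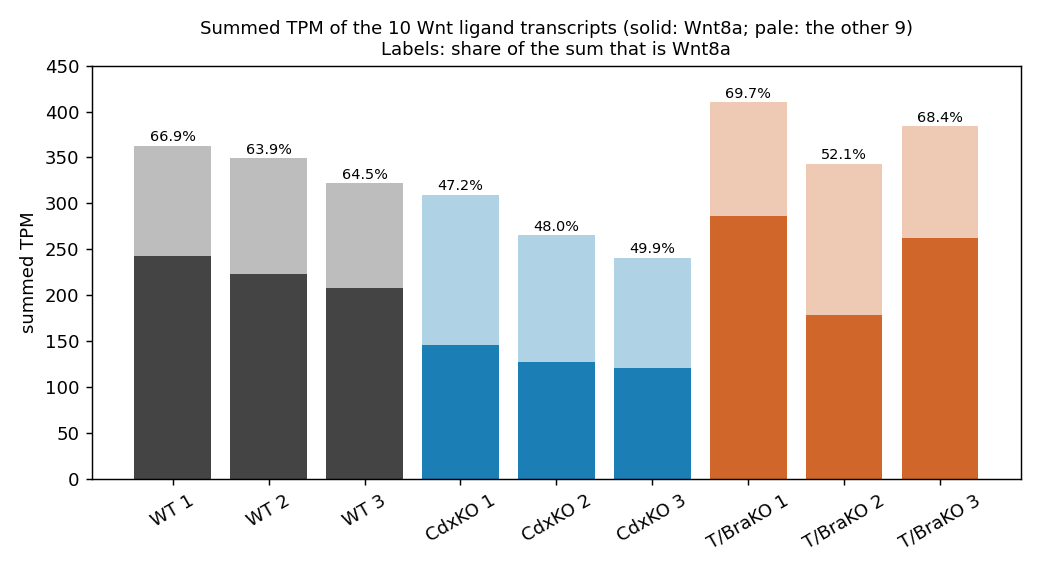
Summed TPM of the 10 members in each library, split into Wnt8a (solid) and the other 9 genes (pale), with the Wnt8a share printed above each bar. The 3 CdxKO bars reach 240.7 to 309.4 TPM with 47.2 to 49.9% from Wnt8a, below the WT bars at 322.0 to 362.6 TPM.

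Wnt3, which is needed for streak formation, was slightly higher in both mutants by the blocked fit. The counts were 721.2, 903.4 and 1238 in WT, 1152, 1121 and 1406 in CdxKO and 1007, 1190 and 1425 in T/BraKO. The groups overlapped, but in each of the 3 numbered sets both mutants were above WT. The blocked fit gave a log2 difference from WT of 0.38 in CdxKO (SE 0.098, adjusted p 0.00363) and of 0.35 in T/BraKO (SE 0.097, adjusted p 0.00606), and without the block neither passed (0.36 and 0.34, adjusted p 1 for both). The blocked CdxKO call was lost without WT replicate 1 (adjusted p 0.227), WT replicate 2 (0.0883) or CdxKO replicate 1 (0.206). The T/BraKO call was lost without WT replicate 1 (0.216), WT replicate 2 (0.0989) or any T/BraKO library (0.0616, 0.108 and 0.0573 for replicates 1, 2 and 3). Wnt3 did not separate the mutants, with a blocked difference of 0.03 and an interval from -0.16 to 0.22.

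Wnt5a, the ligand best known for polarity and for outgrowth of the tail, moved in opposite directions in the mutants once the replicate number was in the fit. The counts were 1328, 445.9 and 1389 in WT, 770, 250.9 and 745 in CdxKO and 1792, 563.3 and 2472 in T/BraKO. Replicate 2 was low in all 3 genotypes, with a difference of -1.90 to -1.59 on the log2 scale from the other replicates of its group, so the groups overlapped. Within each number, however, the order was the same, with CdxKO lowest and T/BraKO highest. The same-number differences of CdxKO from WT were -0.79, -0.83 and -0.90, and those of T/BraKO from WT were 0.43, 0.34 and 0.83. On genotype alone nothing passed (log2 fold changes -0.84 and 0.61 against WT and -1.45 between the mutants, adjusted p 1, 1 and 0.424). With the block Wnt5a fell in CdxKO (-0.84, SE 0.11, adjusted p 2.12e-11), rose in T/BraKO (0.55, SE 0.11, adjusted p 2.02e-05) and was 2.62-fold lower in CdxKO when the mutants were compared (-1.39, SE 0.11, adjusted p 2.95e-33). These 3 calls passed in the blocked fit with each library left out. They also passed by edgeR with the block (adjusted p 0.0025, 0.00927 and 2.93e-05). Without the block they passed by DESeq2 when the 3 replicate 2 libraries were left out (adjusted p 5.12e-04, 0.0228 and 1.01e-14). That choice was made after replicate 2 was seen to be low, so it is not independent support.

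Wnt5b, its close paralogue, did not follow Wnt5a. The counts were 829.3, 698.4 and 848.4 in WT, 817.6, 414.3 and 966 in CdxKO and 573.7, 483.6 and 692.4 in T/BraKO. All T/BraKO libraries lay below all WT libraries, the highest at 692.4 against the lowest at 698.4, and CdxKO overlapped both. By the blocked fit Wnt5b fell in T/BraKO (-0.46 on the log2 scale, SE 0.14, adjusted p 0.021), but not on genotype alone (-0.44, adjusted p 1) or by edgeR with the block (adjusted p 0.0843). The blocked call was lost without WT replicate 1 (0.206), WT replicate 2 (0.541) or T/BraKO replicates 1, 2 or 3 (0.285, 0.286 and 0.206). In CdxKO the difference from WT was -0.11 (adjusted p 1), and CdxKO replicate 2 alone set its sign, which was 0.17 without it. Between the mutants the adjusted p was 0.815, but without CdxKO replicate 2 Wnt5b was higher in CdxKO by 0.62 on the log2 scale (adjusted p 0.0376, blocked 5.81e-04).

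Wnt11, which acts in cell movement at gastrulation, and Wnt4, known from kidney and gonad development, were low in every group and were not called. The Wnt11 counts were 24.75 to 38.22 in WT, 30.36 to 39.51 in CdxKO and 34.2 to 46.71 in T/BraKO, and all groups overlapped. Its log2 differences from WT were 0.15 in CdxKO and 0.37 in T/BraKO (adjusted p 1 for both). The Wnt4 counts were 72.01, 67.71 and 68.06 in WT, 81.51, 85.72 and 80.89 in CdxKO and 82.74, 131 and 82.52 in T/BraKO. Both mutants lay above WT in every library, yet the log2 differences of 0.26 (95% interval -0.25 to 0.76) and 0.52 (0.02 to 1.01) did not pass, with adjusted p of 1 and 0.909. T/BraKO replicate 2 was the highest library for both genes.

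Wnt7b, a ligand of epithelia and of the chorion and allantois, had the largest fold change among the members in CdxKO. The counts were 120.4, 53.2 and 39.16 in WT, 339.8, 208 and 207.9 in CdxKO and 104.8, 180.4 and 71.75 in T/BraKO. All CdxKO libraries lay above all others, and WT and T/BraKO overlapped. Against WT, Wnt7b rose 3.56-fold in CdxKO (1.83 on the log2 scale, SE 0.45, adjusted p 0.0127; blocked 1.92, adjusted p 1.24e-08). Without the block the call was lost without WT replicate 2 (adjusted p 0.134), WT replicate 3 (0.137) or CdxKO replicate 1 (0.388), and with the block it passed with each library left out. In T/BraKO the difference from WT was 0.75 (adjusted p 1; blocked 0.83, adjusted p 0.052), and in the blocked fit it passed without WT replicate 1 (1.23, adjusted p 0.0285) or T/BraKO replicate 1 (1.23, adjusted p 0.0125). Between the mutants Wnt7b was higher in CdxKO by the blocked fit (1.09, SE 0.29, adjusted p 0.00207) but not on genotype alone with all libraries (1.08, adjusted p 0.25). Without the block it passed when T/BraKO replicate 2 (1.52, adjusted p 0.0287) or all replicate 2 libraries (1.64, adjusted p 0.0378) were left out, the latter a choice made after seeing the data. That blocked call was lost without CdxKO replicate 1 (0.0651) or 3 (0.15) or T/BraKO replicate 1 (0.173) or 3 (0.0845). Of the 6 lateral mesoderm genes 1 was higher in CdxKO than in WT on genotype alone, against 0.335% of all genes. This was Hand1, which encodes a transcription factor of lateral and extraembryonic mesoderm, at 188.1, 223.2 and 170.2 counts against 31.51, 47.4 and 27.97 in WT (log2 fold change 2.44, adjusted p 2.58e-14). Foxf1, Gata6 and Tbx4 of the same list were not called, with log2 fold changes of 0.20, -0.02 and -0.10, and Bmp4 was called with the block only (0.59, adjusted p 0.024). Gata4, the remaining gene of the list, was not called on genotype alone, with mean normalised counts of 30.12 in WT and 45.28 in CdxKO. Any part of Hand1-expressing cells in the Wnt7b difference was not tested.

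The neighbours Wnt6 and Wnt10a, ligands best known from ectoderm, had no call in either fit, and Wnt6 varied widely between replicates. The Wnt6 counts were 704.4, 1430 and 478.3 in WT, 2191, 2254 and 807 in CdxKO and 1156, 2684 and 409 in T/BraKO. In every genotype replicate 2 was highest and replicate 3 lowest, and CdxKO was above WT in all 3 same-number pairs. The log2 difference of CdxKO from WT was 1.01 (95% interval -0.50 to 2.52, adjusted p 1). The blocked fit gave 1.03 with an adjusted p of 0.0591, just short of the threshold, and edgeR with the block called it (1.04, adjusted p 0.0405). The blocked value passed without WT replicate 3 (0.035), CdxKO replicate 2 (0.0108), T/BraKO replicate 2 (0.00969) or T/BraKO replicate 3 (0.0257). The Wnt10a counts were 41.63, 58.03 and 41.95 in WT, 102.8, 87.5 and 63.96 in CdxKO and 80.54, 152 and 26.91 in T/BraKO. CdxKO was above WT without overlap, with a log2 difference of 0.84 that did not pass (95% interval -0.18 to 1.86, adjusted p 1; blocked 0.206). In the blocked fit without T/BraKO replicate 3, Wnt10a passed as higher in T/BraKO than in WT (1.14, adjusted p 0.049). As in Wnt6, replicate 2 was the highest T/BraKO library and replicate 3 the lowest. Of 6 surface ectoderm genes, DESeq2 called 0 in CdxKO against WT on genotype alone, against 0.335% of all genes higher and 0.358% lower, and edgeR called 0. At an unadjusted p under 0.05 by DESeq2 2 were higher, and edgeR with the block called those 2, where it called 411 genes higher in all. The blocked DESeq2 fit called 0 of the list, with an adjusted p for only 1 of the 6. The 2 higher genes were the keratin genes Krt5 and Krt15, named after their values were seen. Krt5 had 3.376, 0.9672 and 5.594 normalised counts in WT and 53.92, 9.822 and 8.465 in CdxKO. Krt15 had 9.001, 3.869 and 4.661 in WT and 20.06, 26.79 and 11.29 in CdxKO. Both were above WT in every CdxKO library, at few counts. Grhl3, the most abundant gene of the list, had similar means of 185 counts in WT and 184.5 in CdxKO. Krt14 was at 2.884 and 2.058, Trp63 at 2.21 and 4.012, and Tfap2b at 0 in all 9 libraries. The list summed to 4.37 to 6.06 TPM in WT, 4.36 to 9.15 in CdxKO and 3.01 to 4.35 in T/BraKO. Any part of cells expressing Krt5 or Krt15 in the Wnt6, Wnt7b and Wnt10a differences was not tested.

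The replicate number moved the members by different amounts and in different directions. Against the other replicates of its group, replicate 2 was lower for Wnt5a in all 3 genotypes (-1.90 to -1.59 on the log2 scale) and higher for Wnt6 (0.76 to 1.96). Among the comparison genes it was higher for Wnt10b (2.34 to 3.54) and for Wnt9a (0.88 to 1.57). In CdxKO replicate 2 was also lower for Wnt3a (-1.12) and Wnt5b (-1.1). For Wnt3 the same difference was between -0.18 and -0.01, but this contrast does not show shifts between the other replicates. Wnt3 rose from replicate 1 to 3 in WT (721.2, 903.4 and 1238 counts) and in T/BraKO (1007, 1190 and 1425). Wnt7b, Wnt4 and Wnt11 stood out in replicate 2 of T/BraKO, where they were higher by 1.05, 0.66 and 0.34. The labels do not say what a replicate number stands for.

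The other genes of the pathway were mostly not called on genotype alone. Of the 9 remaining Wnt genes DESeq2 on genotype alone called 0 in any comparison, with 0 at an unadjusted p under 0.05 and 0 by edgeR. Over all genes 0.148% to 2.52% were called in a given direction there. The blocked fit gave an adjusted p to 6 of the 9 in CdxKO against WT, 2 in T/BraKO against WT and 6 between the mutants. It called Wnt9a, which was higher in CdxKO than in T/BraKO (log2 difference 0.67, adjusted p 0.00116), against 7.75% of all genes. By edgeR with the block 2 were higher in that comparison. For secretion, Wls, the carrier of lipid-bearing WNT, had 5423, 4058 and 2607 counts in WT, 3247, 3476 and 2167 in CdxKO and 4469, 4018 and 2178 in T/BraKO. It was lower in CdxKO than in WT by the blocked fit only (-0.41, SE 0.089, adjusted p 2.6e-04; adjusted p 1 without the block). Porcn, which encodes Porcupine, the target of LGK974, was not called, with log2 differences from WT of 0.25 and 0.07 (adjusted p 1 for both).

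Of 16 receptor genes, 1 was lower in CdxKO than in WT on genotype alone, against 0.358% of all genes, and 3 with the block, against 1.91%. This was the Frizzled receptor gene Fzd10, which had 7082, 4326 and 5098 counts in WT, 2785, 1625 and 1665 in CdxKO and 9448, 5886 and 7211 in T/BraKO. All CdxKO libraries lay below all others (log2 fold change -1.44 against WT, adjusted p 4.06e-05, and -1.89 against T/BraKO, adjusted p 2.92e-10). By edgeR on genotype alone the call against WT was lost (adjusted p 0.168) and that against T/BraKO passed (0.0109), and with the block edgeR called Fzd10 in CdxKO against WT (1.23e-06). Against WT, Fzd10 in T/BraKO was called by the blocked fit only (0.45, adjusted p 1.41e-09, and adjusted p 1 without the block). Fzd10 therefore shared with Wnt5a its order of genotypes within each replicate number, CdxKO lowest and T/BraKO highest. On genotype alone 0 receptor genes were called in T/BraKO against WT, against 0.148% of all genes higher and 0.937% lower. There were 1 higher and 2 lower at an unadjusted p under 0.05 and 0 by edgeR. The blocked fit called 4 receptor genes higher and 1 lower in T/BraKO than in WT, against 4.83% and 4.85% of all genes. Among them was Ror2, a receptor for Wnt5a, which rose (0.32, adjusted p 2.24e-04). The median log2 fold change of the 16 genes on genotype alone was 0.02 in CdxKO and 0.04 in T/BraKO, beside -0.0023 and 0 over all genes.

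Of 7 R-spondin and Lgr genes, whose products raise the number of Frizzled receptors at the surface, 1 fell in T/BraKO against WT on genotype alone, where 0.937% of all genes were lower. Rspo3 had 1819, 889.9 and 963 counts in WT, 1437, 410.7 and 847.5 in CdxKO and 355.2, 193.3 and 399.1 in T/BraKO. T/BraKO lay below both other groups without overlap (difference from WT -1.95 on the log2 scale, SE 0.43, adjusted p 0.00108; CdxKO against T/BraKO 1.51, adjusted p 0.0169). By edgeR on genotype alone neither Rspo3 call passed (adjusted p 0.203 and 0.221), and with the block edgeR called both (8.64e-04 and 0.00185). The blocked DESeq2 fit also called Rspo1 higher in T/BraKO than in WT (0.52, adjusted p 0.0289). Of 10 feedback genes, 1 rose in T/BraKO against WT on genotype alone and 4 with the block, against 0.148% and 4.83% of all genes. Sp5, a transcription factor gene that β-catenin activates, had 2950, 3266 and 3195 counts in WT, 3252, 3676 and 2709 in CdxKO and 5385, 5097 and 4844 in T/BraKO (T/BraKO against WT 0.70 on the log2 scale, SE 0.125, adjusted p 6.19e-06). No feedback gene was called in CdxKO against WT by DESeq2 without or with the block. Over all genes 0.335% were higher and 0.358% lower there without the block, and 3.4% and 1.91% with it. At an unadjusted p under 0.05 by DESeq2 there were 0 and 2 feedback genes without and with the block, and edgeR called 0 and 1. Of 12 secreted antagonists, DESeq2 on genotype alone called 0 in any comparison, where 0.148% to 2.52% of all genes were called in a given direction. There was 1 at an unadjusted p under 0.05 (between the mutants, lower in CdxKO) and 0 by edgeR. The blocked fit gave an adjusted p to 7 of the 12 in T/BraKO against WT and called 2 higher, against 4.83% of all genes. These were Notum, which removes the lipid from WNT (0.53, adjusted p 1.19e-04), and Dkk1, which blocks the Lrp co-receptors (1.25, adjusted p 0.0165).

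The sequence before the transcription start of Wnt3a, the member that was lower in both mutants, is shown as the promoter-side sequence of that result (RefSeq, GRCm38.p6, chr11:59290752-59291001, minus strand, 250 bases up to the start, CpG in capitals).
Wnt3a upstream: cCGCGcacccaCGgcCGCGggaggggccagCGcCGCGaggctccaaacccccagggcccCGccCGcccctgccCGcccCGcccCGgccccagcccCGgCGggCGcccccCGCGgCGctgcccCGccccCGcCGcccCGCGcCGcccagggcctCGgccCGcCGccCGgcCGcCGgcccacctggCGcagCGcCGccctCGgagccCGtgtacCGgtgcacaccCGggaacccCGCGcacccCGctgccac
It holds 41 CpG and is 87.6% G or C, beside medians of 6 and 52.4% over 32851 RefSeq windows of this length. RefSeq windows of 300 bases, from 250 before to 50 after a start, were given for 6 members (Wnt3, Wnt3a, Wnt4, Wnt5b, Wnt6 and Wnt11), in 9 windows. They were searched on both strands for the TCF/LEF motif CTTTGAT, the T-box motif TCACACCT and the CDX motifs TTTATTG and TTTATGG, which are in 3.73%, 1.28%, 4.6% and 2.75% of all windows. The Wnt3a, Wnt3, Wnt4 and Wnt6 windows hold none of these letters. A TCF/LEF match starts 71 bases before a start of Wnt5b (chr6:119449337-119449636) and 51 bases before a start of Wnt11 (chr7:98834862-98835161), and the same Wnt5b window holds TTTATGG 222 bases before the start. A match is a description of these letters and not evidence of binding.

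Genes whose profile over the 9 libraries was most like that of a called member were sought among 12315 genes averaging at least 50 normalised counts, by the root mean square difference of their centred log2 values. For Wnt3a these were Kitl (0.30), Dzank1 (0.43) and Sncaip (0.43), where the spread of Wnt3a itself about its mean was 0.73. For Wnt8a they were Camkv (0.17), Pcdh11x (0.20) and Cecr2 (0.21), against a spread of 0.44. For Wnt7b they were S100a6 (0.48), Nnat (0.50) and Plaur (0.52), against 0.96.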

How the data were processed

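Poly(A) RNA of 9 libraries, 3 each of WT, CdxKO and T/BraKO, was grouped by genotype, and replicates were numbered, as in the labels. Per the labels and methods, the authors trimmed single-end, strand-specific reads with cutadapt 1.16 and quantified RefSeq genes on mm10 with RSEM 1.3.0 and STAR 2.5.2a. The deposited expected counts are RSEM estimates per gene that need not be whole (3.75% to 4% were fractional), and they were rounded here. The deposited TPM values are scaled by the authors' software for transcript length and were used to compare levels between genes and, with no test, to give summed levels of gene lists in each genotype. A normalised count is an expected count divided by the DESeq2 size factor of its library (0.797 to 1.12). All per-sample columns were matched by name.

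DESeq2 1.42.0 in R 4.3.3 was fitted to all 9 libraries and the whole table of 24736 genes, as the study's methods name DESeq2 (Wald test, unshrunken fold changes, Benjamini-Hochberg adjusted p of at most 0.05). SE and 95% intervals given with a blocked value are from the blocked fit, and all others are from the fit to genotype alone. Same-numbered libraries of different genotypes deviated together (mean r 0.703, from 0.532 to 0.814 over 9 pairs and 12316 genes). A fit with the replicate number as a block is therefore given where it changes a call. The mean r of -0.34 for different numbers follows from centring each group on its own mean and is not separate support. All 9 replicate pairs within a genotype differed by more than sampling noise.

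Alternatives were TMM factors, testing only genes that reached 10 counts in 3 or more libraries, edgeR 4.0.16, the 6 libraries compared, a threshold of 0.01 and leaving out each library. Leaving out all replicate 2 libraries, and the alternatives to the blocked fit, were added after seeing the data. Alternatives for normalised values were not used because the tests ran on counts. The scripts were tested on simulated counts. The members and lists were chosen with earlier results of these data known. All members are named. From each other list the plan was to name at most 4 genes per comparison, those with the smallest adjusted p of at most 0.05. Where none passed, the 2 with the highest TPM were to be named. This was not kept throughout, so the genes named are in part a selection. Some called genes are not named, such as 1 receptor gene higher in CdxKO than in T/BraKO on genotype alone. Some uncalled genes are named, such as Foxf1, Gata6 and Tbx4. Genes of like pattern were the 3 nearest to each member called on genotype alone. With library totals of 25124344 to 34705361, a floor of 3 counts equals 2.68 to 3.76 normalised counts, which covers counting error only. Coordinates are from GENCODE M21 and promoter windows from RefSeq on GRCm38.p6, where 6 of the 10 members matched (not Wnt5a, Wnt7b, Wnt8a or Wnt10a).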

Additional observations from a re-analysis of the deposited data

Results flagged for a closer look

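For 3 members the effects of the mutations differed between CdxKO and T/BraKO, as tested by the direct comparison of the mutants with DESeq2. Wnt8a differed on genotype alone, by -0.92 on the log2 scale (CdxKO minus T/BraKO, adjusted p 3.18e-05, and lower in 3 of 3 same-number pairs), with -0.77 in CdxKO and 0.15 in T/BraKO against WT. With the replicate number in the fit the difference was -0.90 (adjusted p 6.11e-07). With all 9 libraries the other two differed in the blocked fit and not on genotype alone. Without the replicate 2 libraries both also passed on genotype alone (Wnt5a -1.49, adjusted p 1.01e-14, and Wnt7b 1.64, adjusted p 0.0378). That choice was made after seeing the data. Wnt7b also passed on genotype alone without T/BraKO replicate 2 (1.52, adjusted p 0.0287). Wnt5a differed by -1.39 (adjusted p 2.95e-33, 3 of 3 pairs), with -0.84 in CdxKO and 0.55 in T/BraKO against WT, so that both mutants passed the threshold in opposite directions. Wnt7b differed by 1.09 (adjusted p 0.00207, 3 of 3 pairs), with 1.92 in CdxKO and 0.83 in T/BraKO. No cause of these differences was tested.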

How the results depend on the processing

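The 30 member results (10 genes in 3 comparisons, fitted on genotype alone) kept their direction and their side of the threshold with TMM factors, when only genes that reached 10 counts in 3 or more libraries were tested and with only the 6 libraries compared. The replicate block added 7 calls, those of Wnt3, Wnt5a, Wnt5b and Wnt7b given above, and changed no other call. Called members, higher and lower, went from 1 and 2 in CdxKO against WT to 2 and 3 with the block, 0 and 0 by edgeR, and 3 and 3 by edgeR with the block. At an adjusted p of at most 0.01, and with the replicate 2 libraries left out, 0 were called higher there. In T/BraKO against WT they went from 0 and 1 to 2 and 2 with the block, 0 and 0 by edgeR, 2 and 1 by edgeR with the block, and 1 and 1 without the replicate 2 libraries. Between the mutants they went from 0 and 1 to 1 and 2 with the block, by edgeR with the block and without the replicate 2 libraries. Leaving out 1 library gave 0 to 1 higher and 1 to 2 lower in CdxKO, 0 to 1 lower in T/BraKO, and 0 to 1 higher in CdxKO than in T/BraKO. Over all genes, 56 higher and 60 lower in CdxKO became 471 and 265 with the block and 5 and 11 by edgeR, 28 and 177 in T/BraKO became 617 and 620 or 7 and 49, and 404 and 154 between the mutants became 1157 and 1030 or 181 and 56. The cause was not tested.

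The signs that turned were all of uncalled values. On the log2 scale, Wnt5b in CdxKO against WT ranged from -0.37 to 0.17 with 1 library left out, was 0.0914 without the replicate 2 libraries and 0.0679 in the blocked fit without CdxKO replicate 2, and Wnt6 in T/BraKO against WT ranged from -0.16 to 1.26. Between the mutants the values with 1 library left out ranged from -0.0927 to 0.16 for Wnt3, -0.46 to 0.0478 for Wnt3a, -0.37 to 0.00366 for Wnt4, -0.13 to 1.16 for Wnt6 and -0.46 to 0.67 for Wnt10a. Wnt3 was -0.0816 in the blocked fit without CdxKO replicate 1, and Wnt11 was 0.00159 without the replicate 2 libraries. Wnt10a was 0.16 with the block, 0.0962 by edgeR with the block and 0.64 without the replicate 2 libraries, and in the blocked fit it was -0.0084 without CdxKO replicate 1 and -0.29 without T/BraKO replicate 3. With 3 libraries a group, the low counts of Wnt4 and Wnt11 (25 to 131) limit the precision of their differences.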
